A study of Homo sapiens with 28 samples.

Results

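Class I antigen presentation genes were followed here through xenografts of 2 established human kidney cancer lines that had become resistant to a VEGF receptor kinase inhibitor. The members are 10 genes taken by symbol, HLA-E, HLA-F, B2M, TAP1, TAP2, TAPBP, PSMB8, PSMB9, ERAP1 and NLRC5, of 19775 genes with a probe set of their own on the Affymetrix HG-U133 Plus 2.0 array. Tumours of the lines 786-O and A498 grew under the skin of the flank of female athymic nude/beige mice that were 6 to 8 weeks old at injection. The sorafenib-resistant 786-O tumours (n = 5) had received sorafenib, which blocks RAF kinases as well as the VEGF and PDGF receptors, at 80 mg/kg by gavage on 6 days a week from a diameter of 12 mm, and were set against untreated 786-O tumours of the same arm (n = 5). The sunitinib-resistant 786-O tumours (n = 4) had received sunitinib, which blocks KIT as well as those receptors, at 53.6 mg/kg on the same schedule, and were set against the untreated 786-O tumours of that arm (n = 5). The sorafenib-resistant A498 tumours (n = 5) had received sorafenib at 80 mg/kg and were set against untreated A498 tumours (n = 4). Excision was at 12 mm before treatment or at 20 mm, and the labels tie no diameter to a single tumour, so drug resistance and tumour size cannot be told apart. Each line is a single established line, both are known to lack a working VHL tumour suppressor, and nothing in the labels gives every tumour a separate host, which means that p-values reflect only how far these tumours spread. Athymic nude mice lack thymus-derived T cells, and the beige mutation weakens natural killer cells, which limits the hosts as a setting for antigen presentation.

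The class I pathway shows fragments of a cell's own proteins to cytotoxic T cells and natural killer cells. Proteasomes cut proteins into peptides, and after interferon exposure the inducible catalytic subunits, among them PSMB8 (LMP7) and PSMB9 (LMP2), replace the standard ones. TAP1 and TAP2 form the transporter that brings peptides into the endoplasmic reticulum, TAPBP (tapasin) holds the empty class I molecule next to it, and the aminopeptidase ERAP1 trims peptides to length. A class I heavy chain pairs with the light chain B2M. HLA-E is the non-classical heavy chain that engages the inhibitory NKG2A receptor of natural killer cells, HLA-F is another non-classical heavy chain, and NLRC5 is the transactivator of class I genes. In renal carcinoma, loss of these components is a known route by which tumour cells become less visible to T cells.

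The members share promoter sequence that their selection did not use, and it is shown because interferon acts on this pathway through it. RefSeq promoter windows of assembly GRCh38.p14, which run from 250 bases before to 50 bases after a gene's start, held 11 windows for 8 of the 10 members (all but HLA-E and NLRC5). The interferon-stimulated response element was searched on both strands as GAAA, any 2 bases, GAAA. It was found in 7 of these 8 genes, in 7 of their 11 windows, against 3.57% of all 35116 windows and 4.09% of the 11113 genes tested on the array that have a window. The stretches below run 5′ to 3′ on the gene's own strand, with the element and 20 bases on either side. Capitals mark the element, which appears as written or as its reverse complement.
HLA-F: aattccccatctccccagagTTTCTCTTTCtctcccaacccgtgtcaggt
B2M: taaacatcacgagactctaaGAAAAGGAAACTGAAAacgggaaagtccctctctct
TAP1: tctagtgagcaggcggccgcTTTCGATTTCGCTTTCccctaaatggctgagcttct
TAP2: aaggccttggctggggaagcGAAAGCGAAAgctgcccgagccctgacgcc
TAPBP: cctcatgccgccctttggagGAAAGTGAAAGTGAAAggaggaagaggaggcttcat
PSMB8: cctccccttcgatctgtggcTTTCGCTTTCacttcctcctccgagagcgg
ERAP1: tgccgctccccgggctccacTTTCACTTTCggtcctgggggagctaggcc

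These stretches lie at chr6:29723258-29723307 on the plus strand (HLA-F), chr15:44711353-44711408 on the plus strand (B2M), and on the minus strand at chr6:32853803-32853858 (TAP1), chr6:32838768-32838817 (TAP2), chr6:33314063-33314118 (TAPBP), chr6:32844022-32844071 (PSMB8) and chr5:96807914-96807963 (ERAP1). B2M, TAP1 and TAPBP each carried a pair of overlapping elements, which is why their stretches are longer. Counted from the start site, the first base of the element lay at -156 in HLA-F, -144 in B2M, -134 in TAP1, -58 in TAP2, -20 in TAPBP, -4 in PSMB8 and 2 in ERAP1. The NF-kB site, searched as GGG, any 2 bases, TT, any base, CC, was found in 4 of the 8 genes (B2M, TAP1, TAPBP and ERAP1), against 8.75% of the tested genes with a window. The gamma-activated site, TTCNNNGAA, was found in 2 (TAP1, in its other window, and PSMB8), against 8.61% of these genes. The Y box ATTGG was found in 5 genes, against 43.0%, and TGACGC, the core of the X2 box, in TAP2 only, 1 of 8 genes, against 16.4%. No 2 different motifs overlapped. TAP1 and PSMB9 stand head to head, with starts 488 bases apart and windows that share 13 bases. The Y box counted for both of these genes is 1 site within the shared bases. The PSMB9 window itself held no response element.

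**Figure D1:**
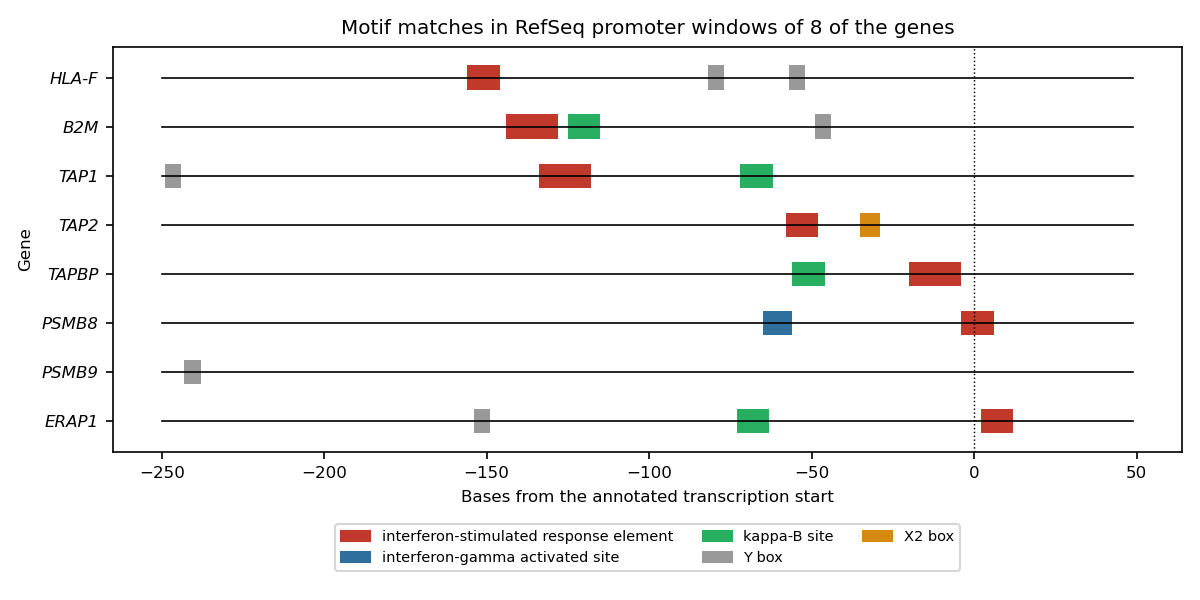
Motif matches in 1 promoter window for each of 8 members, with the distance from the annotated start site in bases on the x axis and 1 line per gene; each coloured box is a match and its colour gives the motif. The window with the response element is drawn where a gene has several, so the gamma-activated site in the other TAP1 window is not shown. The response element appears in 7 of the 8 genes, with first bases between -156 and 2.

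The arrays gave linear probe set signals, scaled so that the trimmed mean of each array was 500.06 to 500.07, with array medians between 79.7 and 99.4. Differences are on the scale log2(signal + 16), which understates changes of dim probe sets, and a gene is represented by its single-symbol probe set of highest mean. Tests came from a limma model over all 28 tumours, and calls were made where the Benjamini-Hochberg adjusted p was below 0.05 among the 13808 genes above a filter on low values. All 10 members passed the filter, as did 23 of their 25 probe sets. All 8 renal carcinoma markers with a probe set passed the filter, with summed signals from 59738 to 103586. All 8 were called between the untreated lines, 5 higher and 3 lower in A498, against 58% of all genes in either direction. Of 11 lymphocyte markers only 2 passed it, and PTPRC (CD45) stayed at or below 79.9 in every tumour, under the filter signal of 89.4. Probes for human transcripts can also bind RNA of the mouse host, and its part in the values was not tested. The 3′ minus 5′ difference of the ACTB control probe sets, a sign of RNA degradation, was highest in an untreated tumour (replicate 5, 1.03 on the log2 scale) and a resistant tumour (replicate 4, 0.67) of the 786-O sorafenib arm, against 0.06 to 0.54 in the other 26.

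In 786-O tumours the peptide transporter, its tapasin partner and HLA-E rose with sorafenib resistance by their representative probe sets. For TAP2 and TAPBP the other filtered probe sets did not share the rise. TAPBP, HLA-E, TAP2 and TAP1 passed the test, at 1.48- to 1.59-fold, and in none of these genes did the resistant and untreated tumours overlap. The 4 of 10 called higher stood against 5.97% of all 13808 genes tested, and 0 of 10 called lower against 9.18% (15.2% in either direction). The heavy chain HLA-F, the light chain B2M and the proteasome subunit PSMB8 had differences between -0.09 and 0.05 and were not called. The members' median difference was 0.35 on the log2 scale, against -0.05 over all genes, and 9 of the 10 differences were above 0.

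TAP1, a subunit of the peptide transporter, had signals of 2279, 1676, 1824, 3006 and 2008 in the 5 sorafenib-resistant tumours, against 1439, 1452, 1513, 1268 and 1462 in the 5 untreated ones. Every resistant tumour was above every untreated one, and the resistant tumours were spread more widely. The difference was 0.56 ± 0.13 on the log2 scale (SE), a 1.48-fold change, with an adjusted p of 0.00342 by limma. TAP2, the other subunit, had 908, 867, 929, 1617 and 1143 in resistant tumours, against 635, 773, 798, 743 and 615 in untreated ones. Here too the groups were apart, and resistant replicate 4 was the highest. The difference was 0.57 ± 0.13 (adjusted p = 0.00305 by limma). With only the 10 arrays of this comparison in the fit the size was the same and the adjusted p was 0.0520.

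TAPBP, which tethers class I molecules to the transporter, had 10177, 9153, 9307, 11702 and 10365 in resistant tumours, against 7373, 6857, 6867, 5910 and 6168 in untreated ones. The lowest resistant tumour was 1780 units above the highest untreated one. The difference was 0.61 ± 0.10 (adjusted p = 0.000107 by limma). HLA-E had 6528, 6855, 6891, 9024 and 7019 in resistant tumours, against 4762, 4849, 4530, 3964 and 4613 in untreated ones. Resistant replicate 4 stood well above the other resistant tumours, which lay close together. The difference was 0.67 ± 0.12, a 1.59-fold change (adjusted p = 0.000257 by limma). Without the 2 tumours of highest ACTB difference the same 4 members were called, at 0.59 for HLA-E, 0.53 for TAPBP, 0.45 for TAP1 and 0.37 for TAP2, with the largest adjusted p at 0.0284, while the count over all genes was 1233 against 2092 with all tumours.

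**Figure D2:**
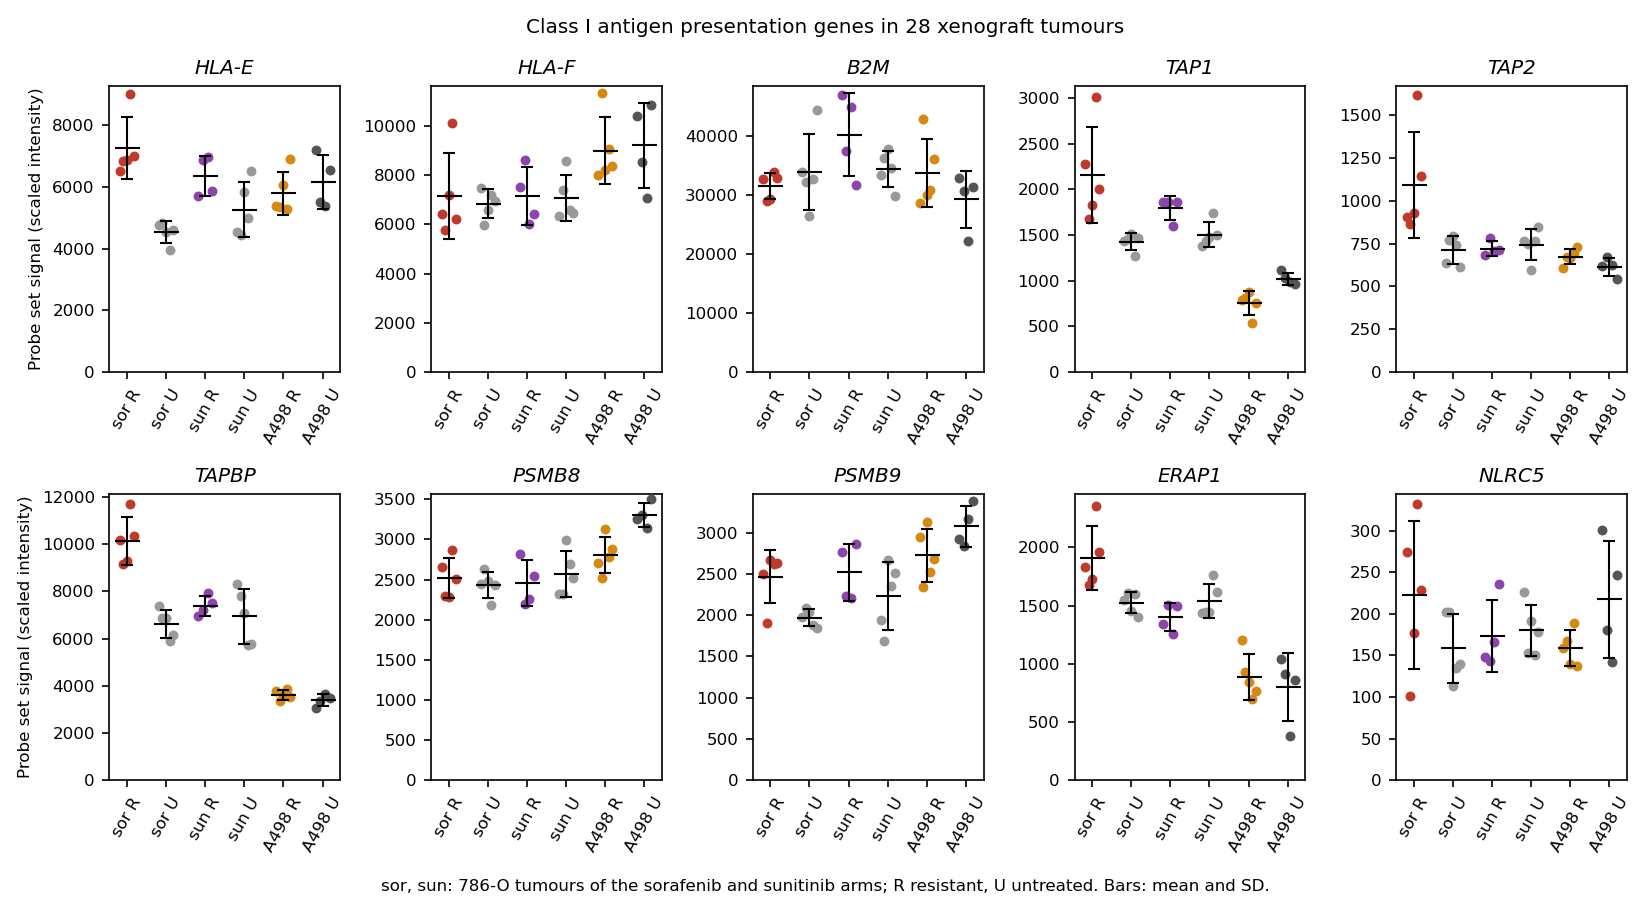
Signal of the representative probe set of each of the 10 members in every tumour, on a linear axis that starts at 0, with 1 panel per gene and each resistant group (R) left of its untreated group (U). Points are tumours, and the black bars are the group mean and SD. In the 786-O sorafenib arm (sor) TAP1, TAP2, TAPBP and HLA-E are higher in each resistant tumour than in each untreated tumour, while in A498 TAP1 is lower in each resistant tumour.

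Trimming, proteasome and regulator genes changed less in the same comparison. ERAP1 had 1676 to 2360 (median 1833) in resistant tumours, against 1406 to 1609 (median 1548) in untreated ones. The groups did not overlap, which made 5 of 10 members higher without overlap, against 5.08% of all genes, and 0 lower, against 7.4% (12.5% in either direction), but the fitted difference of 0.31 ± 0.18 was not called (adjusted p = 0.268 by limma). PSMB9 had 2497, 1904, 2670, 2620 and 2627 in resistant tumours, against 1980, 2089, 2034, 1881 and 1847 in untreated ones. In 4 of 5 resistant tumours it was above every untreated tumour, and replicate 2 lay inside the untreated range. Its difference of 0.31 ± 0.12 was not called (adjusted p = 0.0778). Of the 10 fits that left out 1 tumour, only that without replicate 2 called PSMB9 (0.40, adjusted p = 0.0233 by limma). In the others the adjusted p reached 0.156. PSMB8 had 2287 to 2869 in resistant tumours, against 2183 to 2630 in untreated ones, and differed by 0.05 ± 0.09. NLRC5, the transactivator, had 275, 101, 176, 333 and 228 in resistant tumours, against 202, 202, 113, 134 and 140 in untreated ones. It differed by 0.39 ± 0.23 (adjusted p = 0.281). Over the 10 fits that left out 1 tumour the NLRC5 difference ran from 0.23 to 0.62, with adjusted p-values of up to 0.587 by limma. Only the fit without resistant replicate 2 gave a call (0.62, adjusted p = 0.0426). B2M, with 28962 to 33856 in resistant tumours against 26471 to 44370 in untreated ones, differed by -0.09 ± 0.14. HLA-F, with 5773 to 10144 against 5970 to 7478 in untreated tumours, differed by 0.04 ± 0.15. These HLA-F values come from the set 221875_x_at, which can bind related transcripts. The difference ran from -0.09 to 0.13 without a call over 13 alternatives other than single tumours left out. These include a fit with the HLA-F set 221978_at.

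Class I heavy chains are close in sequence, so that a probe set for one can bind transcripts of others, and all members were therefore read probe set by probe set. In the 786-O sorafenib arm 6 of the 23 probe sets that passed the filter were called higher and 0 lower, against 12% of 26924 probe sets called in either direction. All 3 HLA-E probe sets were among them. The one without a suffix that marks shared sequence (200904_at) had 3074, 3030, 3154, 3846 and 3127 in resistant tumours, against 2210, 1911, 1584, 1808 and 2063 in untreated ones. It differed by 0.76 ± 0.11 (adjusted p = 5.85e-05 by limma), and the sets 200905_x_at and 217456_x_at, which can bind related transcripts, by 0.67 and 0.49. The HLA-E difference was thus as large in the probe set least open to cross-hybridisation. TAP1, PSMB8, PSMB9 and NLRC5 have 1 probe set each. For TAP2 and TAPBP the call rested on the brightest set, 225973_at and 208829_at, since the other filtered sets differed by between -0.01 and 0.05 for TAP2 and by -0.06 and -0.18 for TAPBP. When all probe sets of a gene were averaged instead, TAP2 was 0.19 (adjusted p = 0.458) and TAPBP 0.12 (adjusted p = 0.624), which leaves HLA-E and TAP1 as the 2 members called.

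**Figure D3:**
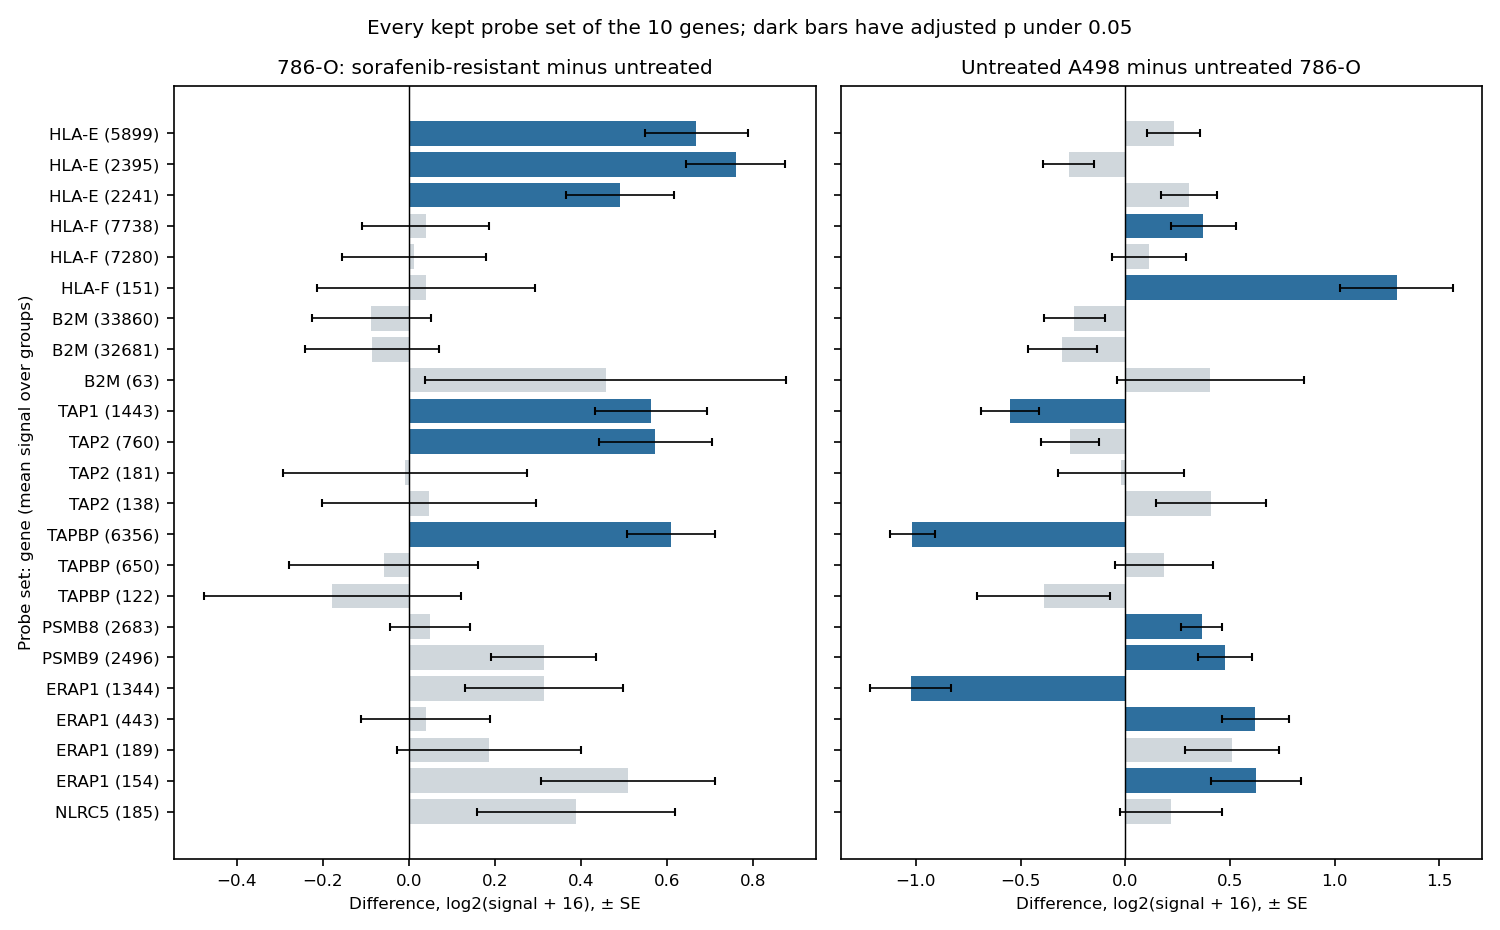
Difference on the log2(signal + 16) scale, with its SE, for each of the 23 filtered probe sets of the members, in sorafenib-resistant minus untreated 786-O tumours (left) and in untreated A498 minus untreated 786-O tumours (right). Dark bars have an adjusted p under 0.05, and the number beside each gene is the mean signal of that probe set over the groups. On the left all 3 HLA-E probe sets are dark and above 0, with 1 probe set each of TAP1, TAP2 and TAPBP; on the right the ERAP1 probe sets lie on both sides of 0.

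The genes around the pathway moved only in part with it in this arm. Of the classical and related heavy chains, HLA-C was called higher (0.36 ± 0.10, adjusted p = 0.0198 by limma), with 17500 to 23969 in resistant tumours against 14450 to 16673 in untreated ones. HLA-B differed by 0.27 ± 0.12 and HLA-G by 0.36 ± 0.16 without a call. Here and in the later comparisons these 3 heavy chains are given by representative probe sets only. Such sets can bind transcripts of related heavy chains, and how far the 3 values share a signal was not tested. None of 6 other loading and trimming genes (CALR, CANX, PDIA3, TAPBPL, ERAP2 and HSPA5) was called, nor were the inducible proteasome parts PSMB10 and PSME1 or any of the 3 standard catalytic subunits PSMB5, PSMB6 and PSMB7. Of 6 alpha ring subunits, the structural part of every proteasome, 0 were called higher and 2 lower (PSMA3 by -0.36, PSMA1 by -0.29). Of 8 factors that bind class I and class II promoters, such as RFX5 and CIITA, 0 were called.

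Interferon and NF-kB signalling genes gave mixed counts beside the members. Of 13 interferon receptor and signalling genes 2 were called higher and 1 lower. SOCS3, a feedback inhibitor of JAK kinases, had 1069 to 1788 in resistant tumours, against 233 to 768 in untreated ones (1.42 ± 0.27, adjusted p = 0.000693 by limma). IRF9, a DNA-binding factor of the response element, had 1408 to 1984, against 1093 to 1422 in untreated tumours, with an overlap between the groups (0.43 ± 0.09, adjusted p = 0.00186). JAK1, the kinase shared by interferon receptors, fell by 0.36 ± 0.10 (adjusted p = 0.0120). IRF1, an activator of TAP1 and PSMB9, had 579 to 720, against 497 to 669 in untreated tumours, and its difference of 0.20 was not called. Of 8 NF-kB subunits and inhibitors 3 were called higher, TNFAIP3 by 0.61, RELA by 0.48 and REL by 0.40, and 0 lower. Among 8 ligands of T cell and natural killer receptors, CD274 (PD-L1) rose by 0.74 ± 0.16 (adjusted p = 0.00179), with 287 to 465 in resistant tumours against 190 to 261 in untreated ones. MICB, a ligand of the NKG2D receptor, rose by 0.62 ± 0.20 (adjusted p = 0.0323). Of 6 class II presentation genes 0 were called. Median differences were 0.15 for the interferon list, 0.36 for NF-kB, 0.27 for the ligands and -0.13 for class II, against -0.05 over all genes.

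Markers of fibroblasts and pericytes moved in the opposite direction in this arm. Of 10 fibroblast and pericyte markers 8 passed the filter, 0 were called higher and 5 lower, led by COL3A1 (-1.93), COL1A2 (-1.83) and FBLN1 (-1.78). Their summed signal was 1785 to 3556 in resistant tumours, against 6362 to 9536 in untreated ones, with no overlap. In bulk tissue fewer cells of a type and less RNA per cell cannot be told apart. The signals also do not say whether host or tumour cells gave them. Macrophage markers summed to 635 to 853 in resistant tumours, against 689 to 1204 in untreated ones, with 1 of 7 called (AIF1, -2.33). Endothelial markers summed to 325 to 591, against 511 to 688 in untreated tumours, with 1 of 3 called (TIE1, -1.70), and lymphocyte markers to 449 to 560, against 459 to 634, with 0 of 2 called. Renal carcinoma markers summed to 64149 to 74011 in resistant tumours, against 64812 to 85032 in untreated ones, but single markers moved both ways: of 8, 2 were called higher (EPAS1, 0.90, and KRT18, 0.42) and 3 lower (SLC17A3, -2.59, PAX2, -0.86, and CDH6, -0.68). The part of the cell mixture in the rise of the 4 members was not tested. With each array centred on its median, which raised every difference of this arm by 0.09, the split over all genes was 1195 higher and 727 lower, against 825 higher and 1267 lower as deposited, and the 4 members were called either way.

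In sunitinib-resistant 786-O tumours no member was called by limma, and HLA-E alone had an unadjusted p under 0.05. The 0 of 10 members stood against 5.06% of all genes (2.22% higher and 2.84% lower), and 0 of 10 were apart without overlap, against 8.46% (4.12% higher and 4.34% lower). HLA-E had 5718, 6866, 6974 and 5857 in resistant tumours, against 4550, 4435, 5850, 5009 and 6511 in untreated ones. The groups overlapped, and the difference was 0.28 ± 0.12 (adjusted p = 0.212 by limma). TAP1 had 1864, 1857, 1599 and 1860 in resistant tumours, against 1381, 1431, 1479, 1735 and 1496 in untreated ones. In 3 of 4 resistant tumours TAP1 was above every untreated tumour, with a difference of 0.25 ± 0.14 (adjusted p = 0.324). TAPBP overlapped fully, with 6970 to 7954 in resistant tumours against 5736 to 8304 in untreated ones (0.11 ± 0.10), and TAP2 differed by -0.04 ± 0.14. The other members differed by between -0.14 (ERAP1) and 0.21 (B2M), and the members' median difference was 0.06, against -0.01 over all genes.

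By probe set, HLA-E was called in this arm too. Its set 200904_at had 3238, 3436, 3272 and 2898 in sunitinib-resistant tumours, against 2039, 2100, 2120, 2341 and 2287 in untreated ones. The groups did not overlap, and the difference was 0.56 ± 0.12 (adjusted p = 0.0113 by limma), the only 1 of 23 probe sets called, against 3.39% of all probe sets. With probe sets open to cross-hybridisation left out, this set stands for HLA-E and the gene was called at 0.56 (adjusted p = 0.00848). Pooling the untreated 786-O tumours of both arms gave 0.38 (adjusted p = 0.0344). Around the pathway 0 of 3 other heavy chains were called, at 0.36 for HLA-C, 0.34 for HLA-B and 0.29 for HLA-G, as were 0 of 13 interferon signalling genes, IRF1 differing by -0.10. Of the NF-kB genes NFKB2 rose by 0.67 (adjusted p = 0.0353) and RELA by 0.46 (adjusted p = 0.0386). Fibroblast and pericyte markers summed to 2066 to 5348 in resistant tumours, against 3235 to 6929 in untreated ones, and 1 of 8 was called lower (RGS5, -0.99).

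The sorafenib and sunitinib changes of 786-O were compared directly as a difference of differences. None of the 10 members was called, against 0.949% of all genes (0.442% higher and 0.507% lower), nor was any of the 23 probe sets, against 0.747%, and 3 members had an unadjusted p under 0.05. By representative probe sets the sorafenib change was larger by 0.61 ± 0.19 for TAP2 (95% interval 0.23 to 1.00, adjusted p = 0.114 by limma). It was larger by 0.50 ± 0.14 for TAPBP (0.21 to 0.80, adjusted p = 0.0888) and by 0.39 ± 0.17 for HLA-E (0.04 to 0.74, adjusted p = 0.287). Over 13 alternatives other than single tumours left out, the mean of probe sets among them, TAP2 ran from -0.04 to 0.64. TAPBP ran from -0.03 to 0.57 and HLA-E from 0.19 to 0.43 over the same settings. With untreated tumours of both arms pooled, TAP2 (0.55, adjusted p = 0.0157) and TAPBP (0.45, adjusted p = 0.0108) were called. That setting sets resistant tumours against resistant tumours without subtracting each arm's own untreated level, so differences between the arms remain in it, and calls over all genes were 852, against 131 with each arm's own controls. The untreated 786-O tumours of the sorafenib arm were set against those of the sunitinib arm as a check of the baseline. None of the 10 members was called, against 0.275% of all genes (0.21% higher and 0.0652% lower), and 0 were apart without overlap, against 2.77% (1.83% higher and 0.934% lower), nor was any probe set called, against 0.383%. Their differences ran from -0.20 (HLA-E) to -0.01 (ERAP1), all below 0. SOCS3 had 233 to 768 in the untreated tumours of the sorafenib arm, against 705 to 1218 in those of the sunitinib arm.

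**Figure D4:**
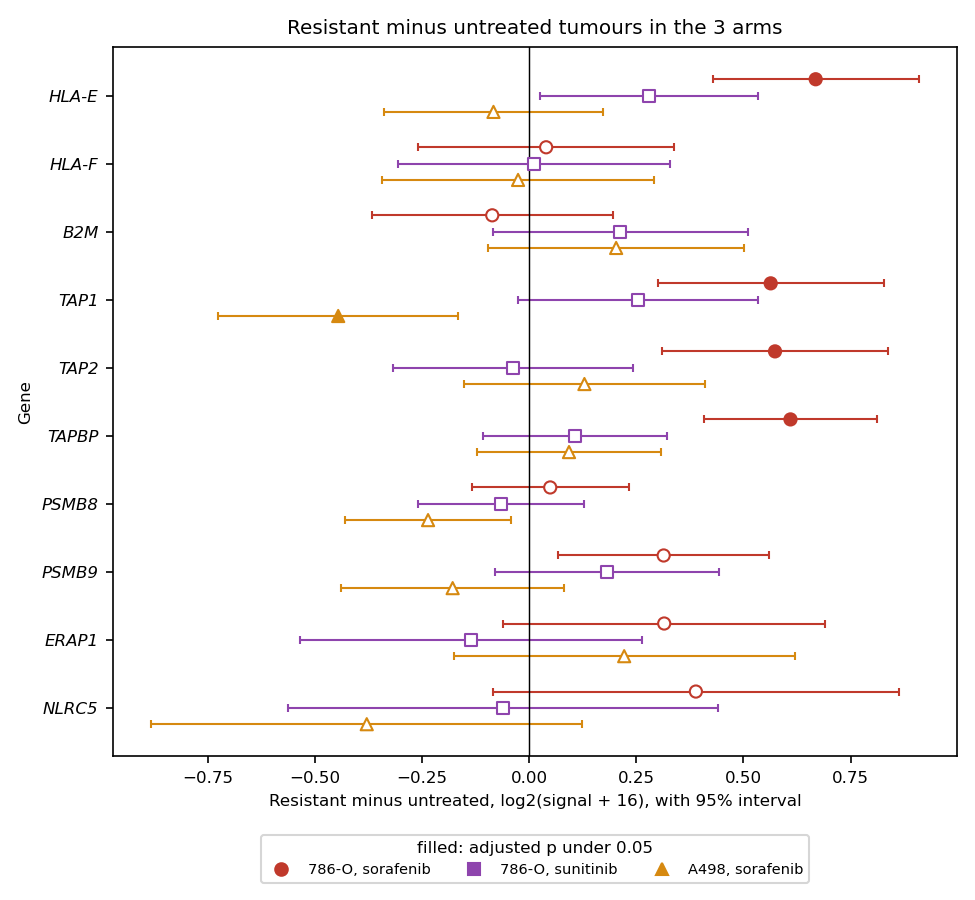
Difference between resistant and untreated tumours on the log2(signal + 16) scale, with 95% intervals, for the 10 members in the 3 arms. Each member is shown by its representative probe set only, and filled symbols have an adjusted p under 0.05. Filled symbols are TAP1, TAP2, TAPBP and HLA-E above 0 in the 786-O sorafenib arm and TAP1 below 0 in A498.

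In A498 tumours sorafenib resistance went with lower TAP1, and no member was called higher. TAP1 had 794, 809, 877, 533 and 759 in the 5 resistant tumours, against 1113, 1028, 982 and 963 in the 4 untreated ones. Every resistant tumour was below every untreated one, and resistant replicate 4 was the lowest. The difference was -0.45 ± 0.14, with an adjusted p of 0.0485 by limma, just past the threshold. The 1 of 10 members called lower stood against 3.4% of all genes, and 0 of 10 called higher against 2.93% (6.34% in either direction). The call was lost when any of the 4 untreated tumours or resistant replicate 2, 4 or 5 was left out, 7 of 9 such fits, with differences between -0.50 and -0.33 and adjusted p-values of up to 0.142 over all 9.

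PSMB8, with 2521 to 3132 in resistant A498 tumours against 3148 to 3500 in untreated ones, was the other member without overlap. That made 2 of 10 lower without overlap, against 5% of all genes, and 0 higher, against 4.14% (9.14% in either direction), but its difference of -0.24 ± 0.09 was not called (adjusted p = 0.141). NLRC5 had 137 to 190 in resistant tumours, against 143 to 301 in untreated ones (-0.38 ± 0.24, adjusted p = 0.394), and PSMB9 differed by -0.18 ± 0.13. TAPBP, TAP2, B2M and ERAP1 had positive differences of 0.09 to 0.22, and HLA-E and HLA-F differed by -0.08 and -0.03, all without a call. Of 23 probe sets 1 was called, against 4.41% of all probe sets. This was the ERAP1 set 214012_at, with 260 to 407 in resistant tumours against 162 to 207 in untreated ones (0.77 ± 0.21, adjusted p = 0.0381), while the brightest ERAP1 set overlapped, with 700 to 1208 against 376 to 1045 in untreated tumours.

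Around the pathway in A498, the 3 other heavy chains differed by between -0.04 and -0.03. Of 13 interferon signalling genes 0 were called higher and 2 lower, the receptor chain IFNAR1 by -0.45 (adjusted p = 0.0432) and JAK1 by -0.41 (adjusted p = 0.0154 by limma), and IRF1 differed by less than 0.01. Of the receptor ligands PVR fell by 0.61 (adjusted p = 0.0222) and ULBP2, which engages NKG2D, fell by 0.56 (adjusted p = 0.00118). None of the NF-kB, class II, loading or proteasome genes was called. Of the 8 renal carcinoma markers 2 were called lower (SLC17A3, -2.97, and KRT8, -0.44). Fibroblast and pericyte markers summed to 9876 to 23829 in resistant tumours, against 6332 to 15498 in untreated ones, with 0 of 8 called, and their part in the values was not tested. With arrays centred on the median every difference of this arm was lower by 0.10, the split over all genes was 172 higher and 801 lower, against 405 higher and 470 lower as deposited, and TAP1 was called at -0.54.

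The change under sorafenib differed between the lines for 3 members. The change in A498 minus that in 786-O was -1.01 ± 0.19 for TAP1 (adjusted p = 0.00232 by limma), -0.75 ± 0.17 for HLA-E (adjusted p = 0.0113) and -0.52 ± 0.14 for TAPBP (adjusted p = 0.0348). For TAP1 the 2 lines changed in opposite directions, though the fall in A498 lost its call in 7 of 9 fits without 1 tumour. HLA-E and TAPBP changed by -0.08 and 0.09 in A498, against 0.67 and 0.61 in 786-O. The 3 of 10 called lower stood against 2.17% of all genes, and 0 of 10 called higher against 3.02% (5.19% in either direction). By probe set, 3 of 23 were called lower, 2 of HLA-E and that of TAP1, against 3.28% of all probe sets. PSMB9 (-0.49), NLRC5 (-0.77), TAP2 (-0.45) and PSMB8 (-0.29) had unadjusted p-values under 0.05 without a call. B2M had the only positive difference, 0.29 ± 0.20. Centring each array on its median lowered every difference of this contrast by 0.18, and relative to that shift 6 members were called lower (HLA-E, TAP1, TAP2, TAPBP, PSMB8 and PSMB9), with 190 genes higher and 713 lower over the array, against 417 higher and 299 lower as deposited.

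TAP1 and HLA-E kept their call in each of the 19 fits that left out 1 tumour. TAPBP lost it in 11 of them, with adjusted p-values of up to 0.0692 (without untreated 786-O replicate 4 or 5, resistant 786-O replicate 1, 4 or 5, untreated A498 replicate 2, 3 or 4, or resistant A498 replicate 2, 3 or 5). Of the 19 fits only that without resistant 786-O replicate 2 also called PSMB9 (-0.58, adjusted p = 0.0428) and NLRC5 (-1.0, adjusted p = 0.0440). In the others their adjusted p-values reached 0.175 and 0.347 by limma. When all its probe sets were averaged, TAPBP was -0.03. Other genes called lower in the same contrast were MICB (-1.0), CD274 (-0.95) and ULBP2 (-0.49) among the ligands, IRF9 (-0.58) among the interferon genes and RELA (-0.63) among the NF-kB genes, and PSMA3 was called higher (0.60). Fibroblast and pericyte markers were called higher in 4 of 8, led by COL3A1 (2.72), and their part in the difference was not tested.

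Untreated A498 tumours were set against the untreated 786-O tumours of the sunitinib arm, a comparison that shares the untreated A498 tumours with that above. The sample titles of both groups begin with the same number, and those of the 786-O sorafenib arm begin with another. What this number stands for is not in the labels. The comparisons of changes between the lines and between the drugs set arms with different numbers against each other. PSMB8, PSMB9 and HLA-F were called higher in A498, and TAP1, TAPBP and ERAP1 lower. The 3 of 10 called higher stood against 27.3% of all genes and the 3 of 10 called lower against 30.6% (58% in either direction), so the share called is near the background, and the members' median difference was -0.01, against -0.06 over all genes. Without overlap 2 were higher, against 23.1%, and 3 lower, against 24.4% (47.4% in either direction). PSMB9 had 2923, 2836, 3162 and 3382 in A498, against 1938, 1690, 2670, 2350 and 2510 in 786-O, with no overlap (0.48 ± 0.13, adjusted p = 0.00223 by limma). PSMB8 had 3257, 3306, 3148 and 3500 in A498, against 2317, 2326, 2996, 2697 and 2526 in 786-O, again apart (0.36 ± 0.09, adjusted p = 0.00181). HLA-F was called at 0.37 ± 0.15 (adjusted p = 0.0413) but overlapped, and the call was lost in 5 of 9 fits without 1 tumour (786-O replicate 1, 4 or 5, or A498 replicate 1 or 4), the adjusted p reaching 0.147. The HLA-F set least open to cross-hybridisation, 221978_at, had 196 to 322 in A498, against 64 to 139 in 786-O (1.29 ± 0.27, adjusted p = 0.000231).

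TAPBP had 3059, 3367, 3674 and 3473 in untreated A498 tumours, against 8304, 7800, 7107, 5736 and 5777 in untreated 786-O tumours. By this set, 208829_at, the difference was -1.02 ± 0.10 (adjusted p = 6.79e-09 by limma). Over 14 alternatives other than single tumours left out, the mean of probe sets among them, the TAPBP difference ran from -1.02 to -0.41. Its adjusted p by limma reached 0.0207 in those settings. TAP1, with the A498 values above against 1381 to 1735 in 786-O, differed by -0.55 ± 0.14 (adjusted p = 0.00117). ERAP1 went in both directions by probe set. Its brightest set, 209788_s_at, had 376 to 1045 in A498, against 1435 to 1767 in 786-O (-1.02 ± 0.19), whereas 210385_s_at had 537 to 680, against 360 to 443 in 786-O (0.62 ± 0.16), and 214012_at was higher by 0.63 ± 0.21. The direction of ERAP1 between the lines therefore depends on the probe set. HLA-E differed by 0.23 ± 0.12, TAP2 by -0.26 ± 0.14, B2M by -0.24 ± 0.14 and NLRC5 by 0.22 ± 0.24, without a call. The HLA-E set 200904_at went the other way, at -0.27 ± 0.12 (adjusted p = 0.0627 by limma), so the direction of HLA-E between the lines depends on the probe set as well. HLA-E by its representative set was called at 0.31 without untreated 786-O replicate 5 and TAP2 at -0.34 without replicate 3. The HLA-E call also depended on the 786-O reference. By the same set HLA-E was called at 0.43 against the untreated tumours of the sorafenib arm (adjusted p = 0.00401 by limma). With the untreated 786-O tumours of both arms pooled it was called at 0.33 (adjusted p = 0.0133). In all, 9 of 23 probe sets were called, against 52.9% of all probe sets.

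Related genes also differed between the untreated lines, where 27.3% of all genes were called higher and 30.6% lower in A498 (58% in either direction). A call was therefore common in this comparison. Of the other inducible proteasome parts PSMB10 was higher by 0.27 (adjusted p = 0.0419 by limma) and PSME1, a subunit of the proteasome activator, lower by 0.73 in A498, and of the 3 standard catalytic subunits PSMB6 (0.53) and PSMB5 (0.26) were called higher. Of 6 other loading and trimming genes 5 were called lower in A498 and 0 higher, led by the aminopeptidase ERAP2 (-0.98), the tapasin relative TAPBPL (-0.78) and the chaperone CALR (-0.74). Of 6 class II presentation genes 4 were called higher and 0 lower. HLA-DMA, which edits class II peptides, had 415 to 669 in A498, against 89.0 to 136 in 786-O (2.09 ± 0.20), while HLA-DRA (2.15 ± 0.64) and HLA-DPB1 (1.80 ± 0.59) overlapped through untreated A498 replicate 3, which carried 53.6 and 17.1, against 28.8 to 71.1 and 4.58 to 48.2 in 786-O. CIITA, the class II transactivator, was called at 1.33 ± 0.39, near the filter, with 85.9 to 143 in A498 against 12.4 to 103 in 786-O. Of 13 interferon signalling genes 5 were called higher, among them IFNAR1 (0.93) and IFNGR2 (0.90), and 4 lower, among them JAK1 (-0.85) and IRF1 (-0.37). HLA-C was higher by 0.43 ± 0.11, and of the ligands MICB was higher by 1.13 and MICA lower by 1.26 in A498.

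Within groups the members varied together only loosely. After subtraction of group means, over 28 tumours that share array scaling, the correlation of a member with the mean of the other 9 was highest for TAP1 (0.64), NLRC5 (0.63), PSMB8 and HLA-F (0.52 each), and was 0.18 for B2M and 0.01 for TAPBP. These values are descriptions, since depth of signal and RNA quality are shared within a tumour. Sorafenib-resistant 786-O replicate 4, 1 of the 2 tumours of highest ACTB difference, lay above its group mean by 0.51 for TAP1 and 0.64 for NLRC5. For PSMB8 and HLA-F it lay above by 0.19 and 0.53. Replicate 2 of that group lay at -0.33, -0.94, -0.13 and -0.28 for the same genes. Correlations with the members' mean, here and for the genes below, were not repeated with tumours left out. The 5 other genes most like the members' mean were LSS, FDPS and HMGCS1 (0.71 each), MSMO1 (0.70) and ISG20 (0.70); the first 4 encode enzymes of cholesterol synthesis, and ISG20 is an interferon-induced exonuclease. Chosen pairs were tested within each line in 10 tests with the group means removed, and none passed after adjustment. TAP1 and PSMB9, the neighbours that face each other, gave Pearson's r of 0.43 and Spearman's rho of 0.33 over 19 tumours of 786-O (permutation p = 0.0643 and 0.174, adjusted p = 0.322 and 0.484), and r was 0.29 without the 2 tumours farthest from the median of TAP1. Over 9 tumours of A498 r was 0.26 and rho 0.12 (exact permutation p = 0.544 and 0.776, adjusted p = 0.866 and 0.948), and r was -0.55 without 2 tumours. IRF1 and TAP1 gave r of 0.44 and rho of 0.45 over 19 tumours of 786-O (permutation p = 0.0555 and 0.0523, adjusted p = 0.322 and 0.484), and r of 0.55 without 2 tumours. Over 9 tumours of A498 the same pair gave r of 0.26 and rho of 0.03 (exact permutation p = 0.482 and 0.948, adjusted p = 0.866 and 0.948).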

How the data were processed

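RNA of 28 xenograft tumours had been hybridised to 1-colour Affymetrix arrays. The values are intensity values: linear probe set signals deposited by the authors, which have the form of MAS5 scaling (equal trimmed means, unequal quantiles). RMA and MAS5 appear in the submitters' processing notes, with no role or version, and detection calls were not used here. The number of tumours, 4 or 5 a group, limits the precision. Groups came from the labels; replicate numbers follow the order of deposition and pair nothing.

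Tests used log2(signal + 16). Of the 54675 probe sets 62 were controls, 41091 had 1 symbol, 1801 several and 11721 none in the platform annotation, and 41037 were matched to RefSeq by Entrez ID. A gene was its probe set of highest mean, kept where 4 or more arrays exceeded the overall median signal (89.4, log2 6.72). Limma 3.58.1 (R 4.3.3) was fitted with 1 coefficient per group over all arrays, with Benjamini-Hochberg adjustment, and again over 26924 probe sets. Pairs of genes were tested by permutation (100000 resamples, exact in A498). The model was tested on simulated data. Promoter motifs and figures used Python 3.11.15 and matplotlib 3.10.9.

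The members, the lists of related genes and the alternatives were chosen with earlier results of these data known. All members were named in every comparison, and of each other list up to 3 called genes of largest difference, with IRF1 and the heavy chains always; some listed genes, and 1 planned pair, are not reported here. Alternatives were pseudocounts of 1 and 64, no filter or the 75th percentile, the mean of probe sets, and probe sets open to cross-hybridisation left out where a gene had another. Further ones were median centring, quantile normalisation, a trended robust variance, array weights, only the arrays compared and pooled untreated 786-O tumours. The rest were the other untreated 786-O arm for the lines, leaving out the 2 tumours of highest ACTB difference, and leaving out each tumour.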

Additional observations from a re-analysis of the deposited data

Results flagged for a closer look

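Tumours far from the rest of their group were looked for in the 60 combinations of member and group, as a gap to the nearest tumour relative to the group's range, and 4 stood out, where chance gives about 1 in 20. HLA-E was high in sorafenib-resistant 786-O replicate 4 (signal 9024, gap 0.776 of the range), and PSMB9 was low in replicate 2 of that group (1904, 0.801). TAP1 was low in untreated 786-O replicate 4 of the sorafenib arm (1268, 0.716) and in sunitinib-resistant 786-O replicate 3 (1599, 0.974), whose group otherwise held 1857 to 1864.

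The sorafenib change differed between the lines by the test of the difference itself, A498 minus 786-O, for TAP1 (-1.01), HLA-E (-0.752) and TAPBP (-0.517). With all its probe sets averaged TAPBP was -0.03 and was not called.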

How the results depend on the processing

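Counts here are of members called in either direction. In sorafenib-resistant 786-O tumours the count was 4 in the report, all higher. It was 2 with the mean of probe sets, 4 to 6 without single tumours and 2 to 5 over all other alternatives. With sunitinib the count was 0, but 2 with the mean of probe sets (HLA-E at 0.41 and ERAP1 at -0.49), 1 with probe sets open to cross-hybridisation left out, 1 with pooled untreated tumours, and 0 without any single tumour. In A498 it was 1 (TAP1, lower). It was 0 with no filter, the mean of probe sets, cross-hybridising sets left out, quantile normalisation or only the arrays compared, and 0 to 1 without single tumours. TAP1 has 1 probe set, which stayed in use when cross-hybridising sets were left out. Its difference there was the same (-0.45), and the adjusted p was 0.0524 by limma. The TAP1 sizes ran from -0.54 to -0.42 over the settings other than single tumours left out. For the sorafenib change between the lines it was 3, all lower, but 6 with centring, again all lower, and 2 to 5 without single tumours. For sorafenib against sunitinib in 786-O it was 0, but 1 with the mean of probe sets (ERAP1 at 0.78), 2 with pooled untreated tumours and 0 without any single tumour. For the untreated lines it was 6 (3 higher and 3 lower in A498), and 5 to 7 under every setting run.

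ERAP1 between the untreated lines reversed to 0.115 with the mean of probe sets (adjusted p = 0.430) and to 0.509 with cross-hybridising sets left out (adjusted p = 0.0575); its probe sets disagree. Of 1773 single values under alternatives, 1714 kept direction and call or had no call on either side, 37 lost a call, 20 gained one and 2 reversed. Of the 1714, 79 changed sign without a call, the largest at 0.889 in size. Counts over all genes ran from 1233 to 2508 against 2092 (786-O sorafenib), 259 to 1326 against 698 (sunitinib), 185 to 1316 against 875 (A498), 458 to 927 against 716 (between lines), 51 to 852 against 131 (between drugs), 0 to 91 against 38 (untreated 786-O arms) and 6118 to 8708 against 8002 (untreated lines). The cause of these shifts was not tested. No correlation of a member pair was called with a pseudocount of 1 or quantile normalisation.

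No paired analysis was possible because replicate numbers were given in order of deposition and tie no tumours together. Dim probe sets, NLRC5 among them, lie near the filter signal.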
